A study of Xenopus allofraseri with 8 samples.

Results

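A set of 95 of the most abundant Trinity genes of the knee extensor transcriptome of *Xenopus allofraseri* is described, out of 163981 in the assembly. A Trinity gene is a group of assembled transcripts whose names differ in the isoform number alone, so that TR80004|c4_g2 is gene 2 of read cluster TR80004|c4. The members were chosen by their measured level: estimated counts were summed per Trinity gene, divided by the total of the frog and multiplied by 1000000 (CPM), and a gene was kept where the mean over the 8 frogs was at least 1000 CPM. Of the 98 genes at or above that level, 1 was left out for holding 20 or more transcripts and 2 were left out by name. None had a transcript of 20000 bases or more. The gene left out for its number of transcripts, TR26046|c3_g5, had a mean of 26679 CPM, above the 26559 CPM of TR77074|c5_g2, member 3 by mean. Ranks of members by CPM are therefore ranks within the set. The level of a member is therefore a description and not a finding.

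The data came from 8 adult males caught in the wild in a single pond, each of which gave 1 library of poly(A) RNA from the knee extensors of the right leg. Frogs A, D, E and G were classed as endurant individuals and frogs B, C, F and H as burst-performant individuals (n = 4 each), and no frog received a treatment. Both classes were drawn from the same locomotor measurements that are used below as traits, so that comparisons of groups and of traits are not independent of each other. Age and kinship of these wild animals were not stated.

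Knee extensors straighten the hind limb and power jumping and swimming in frogs. In vertebrate skeletal muscle a large part of the messenger RNA comes from few genes, chiefly those of the contractile filaments, of calcium handling and of energy metabolism. The article describes *X. allofraseri* as allotetraploid. Many genes of such polyploid frogs exist as homeologous copies of similar sequence. The deposited tables pair no gene name with a Trinity name, and no sequence of the assembly was used here. Symbols came only from the study's list of differentially expressed transcripts, and only 1 member could be given one. The muscle identity of the set was therefore not checked against marker genes. The members are described by their names, lengths and values.

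Estimated counts summed to between 4449192 and 17359253 per frog. Libraries of the same group differed by more than sampling noise in every pair (chi-square divided by its degrees of freedom, 14.5 to 43.0 over Trinity genes), and each was counted as 1 replicate. The estimated counts of frogs C and D were a far smaller part of their trimmed read pairs than those of the other 6 frogs. The reason was not tested, and frog C was at an extreme in several results below. The counts of called members, the named fold changes and the named correlations of pairs were also computed without frogs C and D. Groups of correlated members and principal components were not recomputed without them. The TMM factors of edgeR, which rescale libraries so that most genes centre on no change, raised the burst-performant individuals C and H relative to most others. Their effect on the members is given for spread, direction of change, overlap of groups, velocity, acceleration, time to exhaustion and correlations between members. It is not given for every result.

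These few genes held more than 50% of the muscle library in 7 of 8 frogs. The summed share of the members was 52.6%, 56.1%, 51.2% and 51.7% of the estimated counts in the endurant frogs A, D, E and G. It was 57.1%, 61.4%, 49.0% and 57.6% in the burst-performant ones, in the order B, C, F and H. Frog C had the highest and frog F the lowest share, so that both extremes lay in the burst-performant group and the groups overlapped. The mean was 52.9% ± 2.21 (SD, n = 4) in endurant and 56.2% ± 5.22 in the burst-performant group, and the difference was within the spread of that group.

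Reads were concentrated within the set as well. A single gene, TR80004|c4_g2, took 6.05% ± 1.30 (SD, n = 8) of the library, the 5 most abundant members 16.1% ± 1.93 and the 20 most abundant 36.6% ± 3.25. Of the reads of all members, 50% came from 12 of them. The number of genes needed for 50% of a whole library was 27 in frog H, 30 in C, 37 in D, 39 in B, 51 in G, 53 in A, 59 in E and 76 in F. Frogs H and F, which were the most and the least concentrated libraries, were both burst-performant.

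**Figure D1:**
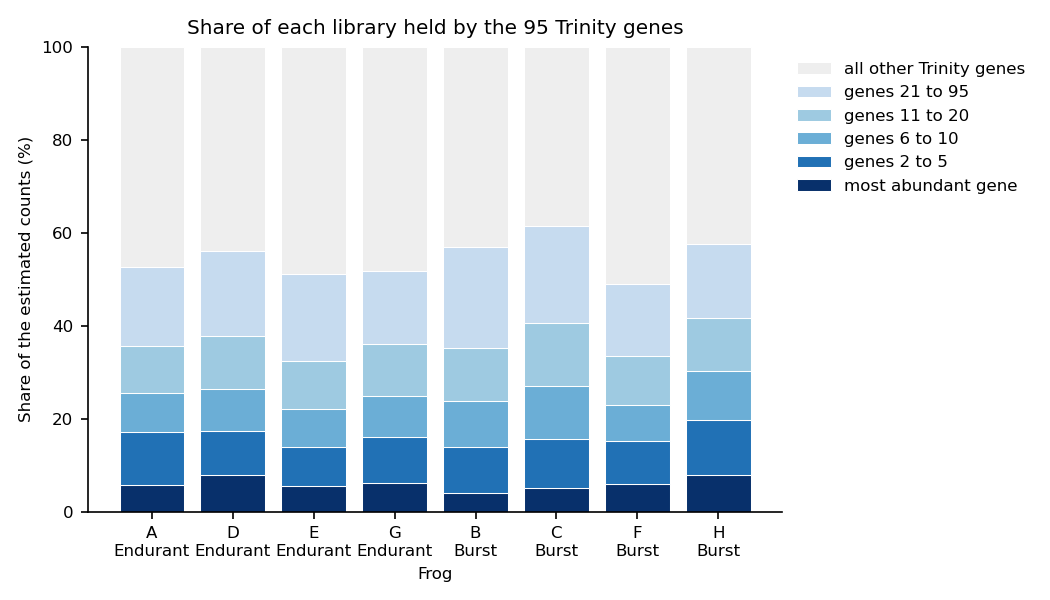
Share of the estimated counts (%) of each frog held by the most abundant Trinity gene, by genes 2 to 5, 6 to 10, 11 to 20 and 21 to 95 of the set, and by all other Trinity genes, with the 4 endurant frogs on the left. The coloured part runs from 49.0% in frog F to 61.4% in frog C.

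By level, 17 members had a mean of 10000 CPM or more, 31 lay between 2000 and 10000 CPM and 47 between 1000 and 2000 CPM. The 5 members just inside the threshold ran from TR66366|c3_g2 at 1032 CPM to TR57630|c0_g1 at 1069 CPM. The 5 genes just outside ran from TR14913|c3_g1 at 961 CPM to TR43708|c1_g1 at 991 CPM. Both sets of genes spread over the threshold in single frogs, since TR66366|c3_g2 ranged from 243 to 3154 CPM and TR43708|c1_g1 from 578 to 1388 CPM.

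The members were assembled in more transcripts than other genes. They held a median of 5 transcripts, with 8 members (8.42%) of a single transcript, whereas 86.7% of the 163886 other genes had 1 transcript. Among the 698 genes with a mean of 100 to under 1000 CPM the median was 4 transcripts and 14.8% had 1. The longest transcript of a member had a median length of 1459 bases, with a range of 244 to 19830 bases, against 1616 bases in those 698 genes. No test was made of these features, and deeper coverage of an abundant gene and a larger number of its transcripts cannot be told apart in an assembly.

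The most abundant member, TR80004|c4_g2, had a longest transcript of 5227 bases. Its level was 57764, 78019, 54477 and 62377 CPM in frogs A, D, E and G and 40636, 51797, 59819 and 79484 CPM in frogs B, C, F and H. Frogs D and H were highest and frog B lowest, and the groups overlapped. The second gene of the same read cluster, TR80004|c4_g1, had 20369, 37966, 19155 and 30349 CPM in the endurant frogs and 17171, 17338, 19381 and 26764 CPM in the burst-performant ones. Frog D was again highest and frog B lowest.

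Of the other 4 among the 6 most abundant members, TR4808|c7_g2 had the lowest CV (SD as a share of the mean). It ranged from 20457 CPM in frog G to 32020 CPM in frog C, and its 4 burst-performant values of 31691, 32020, 29755 and 25479 CPM overlapped the endurant values of 26638, 26100, 21949 and 20457 CPM in frog H alone. TR77074|c5_g2 ran from 15432 CPM in frog B to 38642 CPM in frog H and TR88615|c5_g1 from 16414 to 32028 CPM in the same frogs. TR88932|c1_g4 was highest in frogs B and C, with 36076 and 33239 CPM against 17169 to 22719 CPM in the other 6.

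Read counts favour long transcripts, and levels were therefore compared between genes as TPM (transcripts per 1000000), which are corrected for length. On this scale the highest gene of the whole assembly was TR45428|c4_g1 with a mean of 31221 TPM, followed by TR5388|c0_g1 with 29935 TPM and TR46642|c0_g1 with 18937 TPM. TR80004|c4_g1 came next with 18673 TPM and then TR80004|c4_g2 with 18231 TPM. The order of the set thus changed with length: the long gene TR8834|c1_g1 of 19830 bases had 9544 CPM and 315 TPM, and the short gene TR34010|c2_g2 of 512 bases had 7402 CPM and 16811 TPM. Of the 20 genes with the highest mean TPM 19 were members, and of the 95 highest 61 were. In TPM the summed share of the members fell to a mean of 43.84% ± 4.33 (SD, n = 8).

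**Figure D2:**
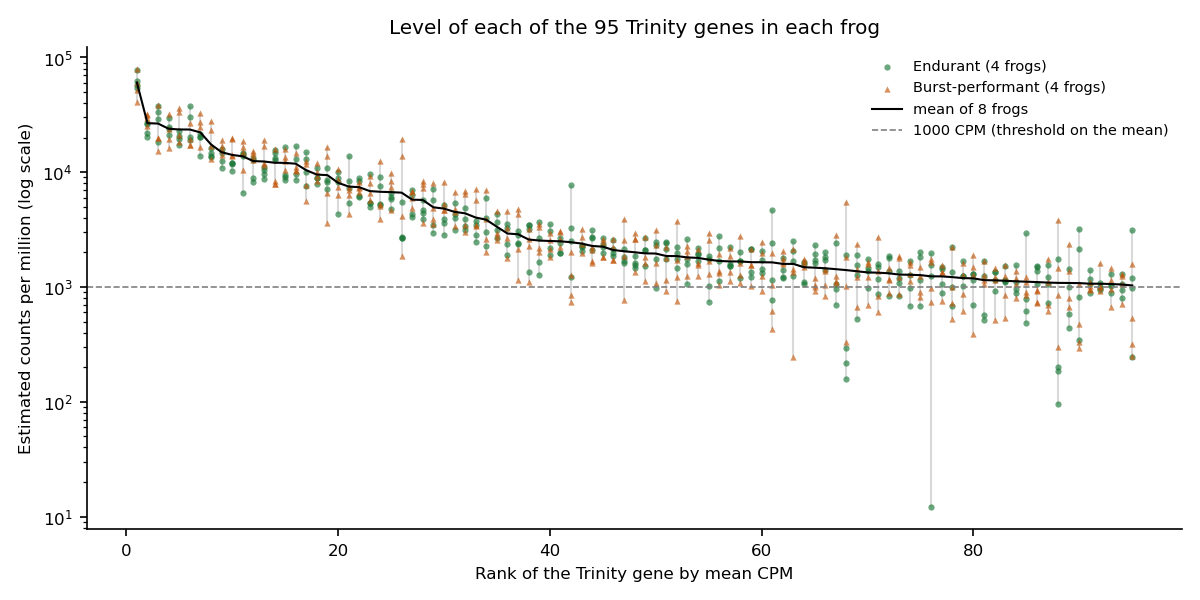
CPM (log scale) of the 95 Trinity genes in each of the 4 endurant (circles) and 4 burst-performant (triangles) frogs, ordered by mean, with the mean as a line and the threshold of 1000 CPM dashed. Levels spread below 1000 CPM in single frogs toward the right, with TR34010|c1_g2 at 12.1 CPM in frog G as the lowest point.

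Spread between frogs differed widely among the members. The CV over the 8 frogs had a median of 30.03%, beside 31.1% for the 698 genes with 100 to under 1000 CPM. The highest frog was less than 2-fold above the lowest in 27 members (28.4%), beside 24.4% of those 698 genes. A CV above 50% was found in 12 members (12.6%) and in 21.3% of the 698 genes. With TMM-scaled CPM the median CV of the members was 38.6%, and 19 of them had a CV above 50%.

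The 4 members with the lowest CV stayed within 1.58-fold between frogs. TR34010|c2_g2 had a CV of 13.8% and ran from 6062 CPM in frog G to 8849 CPM in frog A. TR8834|c1_g1, the single transcript of 19830 bases, had a CV of 14.9% and ran from 7883 CPM in frog A to 12131 CPM in frog B. For TR72719|c2_g4 the CV was 15.2% and for TR57630|c0_g1 15.3%. These 4 included the longest and one of the shorter members.

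At the other end, 9 members varied 10-fold or more. TR58824|c1_g2 (CV 128%) and TR17476|c2_g1 (CV 117%) varied 35.0-fold and 40.2-fold and had the same order of frogs. Levels of TR58824|c1_g2 were 1898, 217, 157 and 294 CPM in frogs A, D, E and G and 1813, 5488, 1029 and 333 CPM in frogs B, C, F and H. Levels of TR17476|c2_g1 were 1764, 184, 95.2 and 201 CPM in the former and 1475, 3826, 845 and 299 CPM in the latter. Frog C was highest in both and frog E lowest, and the endurant frog A lay among the burst-performant frogs.

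TR25376|c3_g1 (CV 98.3%) had 5537, 2670, 2703 and 2685 CPM in frogs A, D, E and G and 19586, 13952, 1857 and 4127 CPM in frogs B, C, F and H. Frogs B and C stood above all others, whereas frog F was the lowest of all 8. TR77012|c2_g2 (CV 97.0%) was highest in the endurant frogs A and E, with 3190 and 2130 CPM, and ran from 295 to 1062 CPM in the other 6. A different kind of spread was found in TR34010|c1_g2, a single transcript of 244 bases: 12.1 CPM in frog G, from an estimated count of 118, against 740 to 1968 CPM in the other 7 frogs. Its effective length, the number of positions at which Kallisto lets a fragment start, was 103 bases in frog G and 82.2 to 89.4 bases elsewhere. The part that fragment length plays in that value was not tested.

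The extremes were not evenly spread over the frogs. Frog C held the highest level of 26 members and the lowest of 13, frog F the highest of 7 and the lowest of 20, and frog G the highest of 3 and the lowest of 11. The remaining frogs were highest for between 9 and 14 members. Because a CPM is a share of the library, a rise of 1 abundant gene lowers the share of all others in that frog.

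Endurant and burst-performant individuals were then compared gene by gene, to ask which of the members were tied to locomotor class. No member was called. All 95 passed the filter of more than 1 CPM in at least 2 frogs, and the quasi-likelihood test of edgeR, fitted on all 35656 genes that passed, gave an adjusted p of at most 0.05 for 0 members (background 0%) and an unadjusted p under 0.05 for 6 members, beside 4.43% of all genes tested. At an adjusted p of at most 0.05, 0 members were called by the exact test of edgeR (background 0.132%) and 0 by DESeq2 (background 0.107%). At an unadjusted p under 0.05 the exact test had 8 members, beside 1656 of all 35656 genes. DESeq2 had 16, beside 1733 of 35392 genes. When no gene was filtered out, 5 members were called (background 0.509%): TR58824|c1_g2, TR17476|c2_g1, TR25376|c3_g1, TR31316|c6_g4 and TR77012|c2_g2.

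Fitted changes were mostly negative, that is lower in endurant individuals, in 70 of the 95 members, with a median log2 fold change of -0.23 beside 0.01 over all genes. The number of negative changes depended on the scaling. With library size only, 53 members were lower and 42 higher, while the median of all genes moved to 0.14 and that of the members was -0.06. With limma on log2(TPM + 1) the split was 50 to 45, with a median of -0.01 in the members and 0.11 over all genes. The median of the members thus lay below that of all genes in each of these fits, which was not tested. Because the signs changed with the scaling, no direction is given for the set as a whole.

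Among the members lower in endurant individuals, the largest fitted changes were those of the variable genes described above. TR58824|c1_g2 had a log2 fold change of -2.12 (SE 0.999, exact permutation p = 0.171, 2-sided) and TR17476|c2_g1 one of -1.87 (SE 1.01, exact permutation p = 0.171). TR25376|c3_g1 followed with -1.80 (SE 0.69, exact permutation p = 0.257). Fold changes and SE came from edgeR's quasi-likelihood fit with TMM factors, whose unadjusted p was 0.0592, 0.0937 and 0.0257 for these genes. In comparisons of levels between groups, each exact permutation p was that of the difference in mean log2(CPM + 1) without TMM factors. That difference was -1.87, -1.96 and -1.07 in the same order. In none of these genes were the groups apart, since frog A exceeded the lowest burst-performant frog in each. Without frog A the fitted change was -3.58 for TR58824|c1_g2 and -3.60 for TR17476|c2_g1, and without frog C it was -0.82 and -0.74. Without frogs C and D it was -0.55, -0.47 and, for TR25376|c3_g1, -1.42.

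TR12648|c3_g1 had 3456, 2467, 2829 and 3763 CPM in the endurant and 5708, 7130, 3382 and 3498 CPM in the burst-performant individuals, with a log2 fold change of -0.91 (SE 0.38, exact permutation p = 0.143). Frogs F and H lay within the endurant range, and without frog C the change was -0.55. The unadjusted p of edgeR's quasi-likelihood test was 0.0363 for TR12648|c3_g1. The adjusted p of edgeR's quasi-likelihood test over all genes was 0.9998 for every member named in the comparison of groups.

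Of the members higher in endurant individuals, TR31316|c6_g4 changed most. Its levels were 3288, 2528, 7703 and 1227 CPM in frogs A, D, E and G and 2017, 747, 1271 and 858 CPM in frogs B, C, F and H, with a log2 fold change of 1.49 (SE 0.55, exact permutation p = 0.0857). Frog E was highest by far and frog G lay within the burst-performant range. Without frog E the change was 0.80. TR77012|c2_g2 had a log2 fold change of 1.39 (SE 0.67) and TR57676|c2_g1 one of 1.06 (SE 0.60), with an exact permutation p of 0.20 for each. Without frog A the change of TR77012|c2_g2 was 0.90, and without frog E that of TR57676|c2_g1 was 0.35. The unadjusted p of edgeR's quasi-likelihood test was 0.0211 for TR31316|c6_g4, 0.0637 for TR77012|c2_g2 and 0.105 for TR57676|c2_g1.

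Groups did not overlap in CPM in 4 of the 95 members, beside 2.74% of all genes tested. Higher in every endurant individual were 2 of these, beside 2.24% of all genes. TR42081|c5_g2 had 1622, 2335, 1954 and 1726 CPM in the endurant and 918, 1009, 1200 and 1032 CPM in the burst-performant individuals (log2 fold change 0.71, SE 0.28, exact permutation p = 0.0286, n = 4 and 4, 2-sided). TR61392|c3_g2 had 1381, 1539, 1505 and 1069 CPM against 742, 949, 918 and 729 CPM (log2 fold change 0.54, SE 0.29). The smallest value that the 70 assignments of 8 frogs allow is p = 0.0286 in this exact test. Any gene without overlap between the groups takes this value, so that it restates the lack of overlap and adds no evidence. No member could pass a correction over all genes by it.

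Higher in every burst-performant individual were the other 2, beside 0.502% of all genes. TR63587|c2_g2 had 11842, 10163, 12104 and 11962 CPM in frogs A, D, E and G and 13742, 19526, 14150 and 19738 CPM in frogs B, C, F and H (log2 fold change -0.78, SE 0.35). TR50279|c1_g1 had 9567, 8812, 10402 and 11098 CPM in the former and 12121, 18925, 11510 and 16814 CPM in the latter (log2 fold change -0.83, SE 0.36). Frogs C and H stood well above frogs B and F in both genes, and frog F exceeded the highest endurant frog by little. With TMM-scaled CPM only TR42081|c5_g2 remained without overlap, beside 1069 of all 35656 genes. That count compares the ranges of the groups, and no permutation test of groups was made on that scale.

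**Figure D3:**
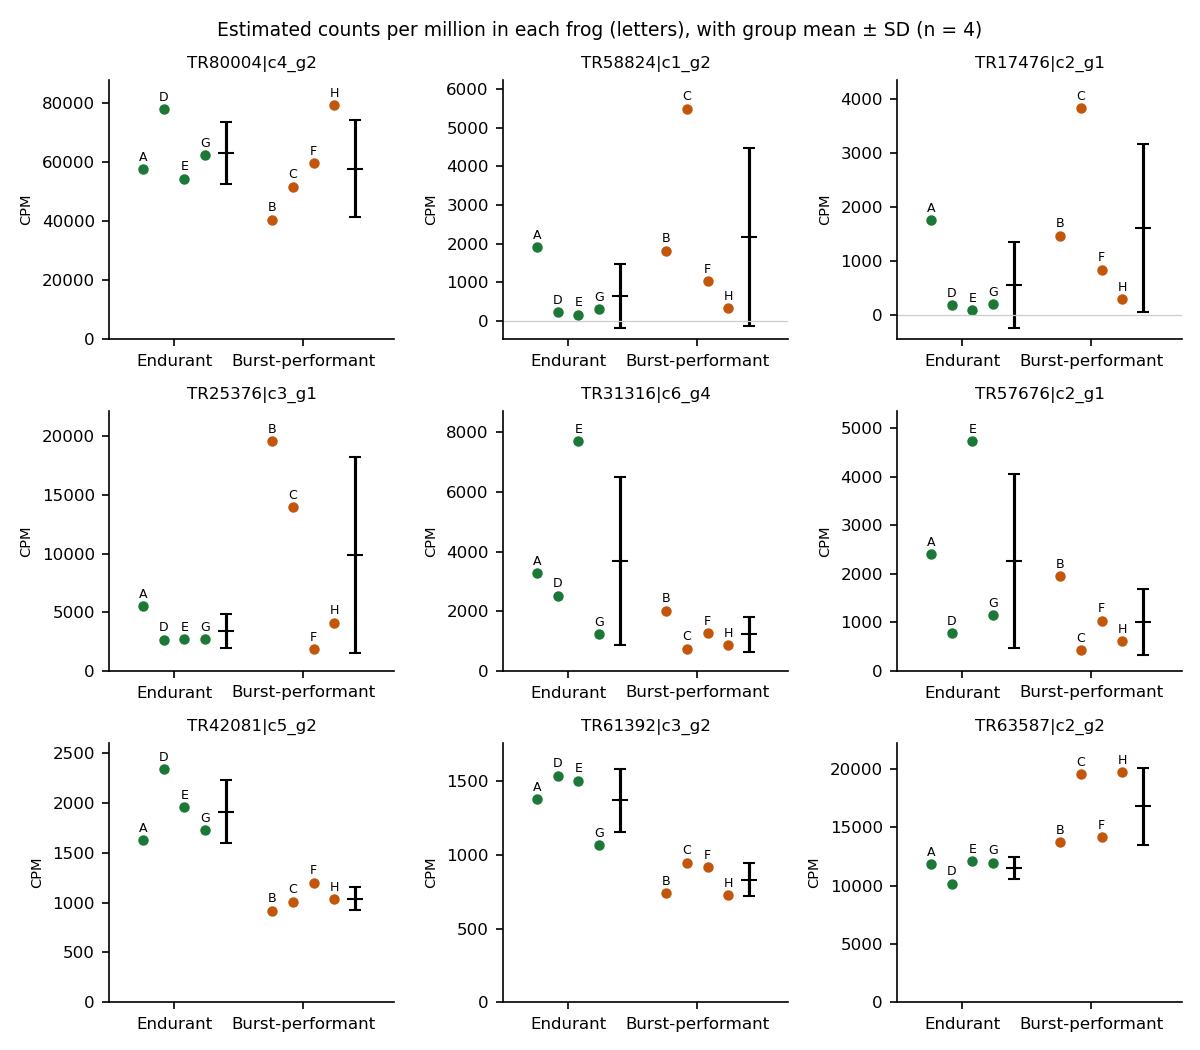
CPM of 9 Trinity genes in each frog (letters), with the mean ± SD of each group (n = 4) beside the points. The groups stand apart in TR42081|c5_g2, TR61392|c3_g2 and TR63587|c2_g2 and overlap in the other 6, where frog A, C or E often lies far from its group.

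At the level of transcripts, 462 transcripts of members were tested among 55631. The quasi-likelihood test of edgeR called 0 of them (background 0%), with 45 at an unadjusted p under 0.05, beside 3.66% of all transcripts. The exact test of edgeR called 1 (background 0.196%) and DESeq2 called 5 (background 0.32%). The transcript called by both was TR31715|c6_g1_i4, the only one with a symbol. It was joined to *ascc2*, 1 of 103 entries in the study's list of transcripts reported as differentially expressed between the groups. Each entry of that list could be matched to a single transcript. A symbol could therefore be given only to a transcript that the study had itself reported as differential. In human cells ASCC2 is a subunit of a complex that takes part in the repair of alkylated DNA. The remaining 4 were TR5388|c0_g1_i2, TR43201|c3_g2_i1, TR47351|c0_g1_i3 and TR76062|c2_g3_i2.

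The levels of TR31715|c6_g1_i4 were 5642 CPM in frog B and 5352 CPM in frog F, against 4.50 to 21.5 CPM in the other 6 frogs. Frogs C and H, also burst-performant, had 21.5 and 13.9 CPM and lay beside the endurant frogs. TR47351|c0_g1_i3 behaved alike, with 2613 and 4141 CPM in frogs B and F, 356 CPM in frog H and 0.659 to 37.1 CPM in the other 5. In both the difference between groups was made by frogs B and F, and the groups overlapped.

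The other called transcripts had different carriers. TR43201|c3_g2_i1 had 502 and 1057 CPM in the endurant frogs E and G and 1.60 to 6.01 CPM in the others. TR76062|c2_g3_i2 had 48.8 CPM in frog G and 5.502 CPM in frog A and was at 0 in the remaining 6. TR5388|c0_g1_i2 alone was higher in every burst-performant individual, with 3074, 2380, 2566 and 2056 CPM in frogs B, C, F and H against 894, 580, 1211 and 1217 CPM in frogs A, D, E and G.

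The split between transcripts of 1 gene was then described by the share of the leading transcript, the one with the most estimated counts over all frogs, in the 87 members with at least 2 transcripts. That share had a median of 68.5% over these members, beside 57.3% over all 5673 genes with at least 20 counts in every frog. It reached 90% or more in every frog in 14 members and was under 50% on average in 16. In 59 members the same transcript was the largest in all 8 frogs, and in the other 28 at least 1 frog had another. Kallisto shares read pairs among similar transcripts, and the split is itself an estimate.

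Frogs B and F shared a pattern in 3 members, in which they alone had another largest transcript. In TR47351|c0_g1 the leading transcript i6, of 1124 bases, made up 88.8%, 63.9%, 74.8% and 81.3% of the gene in frogs A, D, E and G and 69.7% and 88.0% in frogs C and H, but 0.023% in frog B and 0.0091% in frog F. The transcript i1, of 1344 bases, took 45.7% and 54.2% in those frogs against at most 11.6% in the others, although the total of the gene, 10416 and 16045 CPM, lay within the range of the other 6 frogs.

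In TR31715|c6_g1 the leading transcript i5, of 4409 bases, held 67.6% to 78.1% in 6 frogs, 0.658% in frog B and 3.79% in frog F. Its place was taken by the *ascc2*-labelled i4 of 4341 bases with 67.4% in frog B and 68.2% in frog F, while it held at most 0.272% elsewhere. The gene total was 8375 and 7844 CPM in frogs B and F and 7925 to 16096 CPM in the others. In TR77074|c5_g2 the leading transcript i1 held 33.9% and 32.1% in frogs B and F and 72.7% to 88.2% in the other 6, and i3 of 2389 bases held 66.1% and 67.4% against 4.31% to 14.4%. Another transcript than the leading one was largest and shared by frogs B and F in 5 members, against 0 to 3 for every other pair of frogs. Counting leading transcripts too, frogs B and F had the same largest transcript in 77 of 87 members, within the range of 70 to 80 over all pairs. The pattern of frogs B and F was picked after its values were seen, and no test was made of it.

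Other members switched in other frogs. In TR40464|c1_g1 the leading transcript i3 held 16.7% in frog F and 39.1% in frog H against 78.2% to 96.5% in the other 6. In TR17623|c5_g3 the shares of i2, chosen after they were seen, fell into 3 levels: 96.1%, 98.1% and 96.7% in frogs B, C and G, between 56.0% and 59.8% in frogs A, E, F and H, and 0.103% in frog D. Both its main transcripts had nearly the same length, 2347 and 2363 bases. In TR12826|c1_g2 the transcript i2 held 90.7% in frog E, at most 0.932% in frogs A, D and G and 38.1% to 67.6% in the burst-performant individuals.

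**Figure D4:**
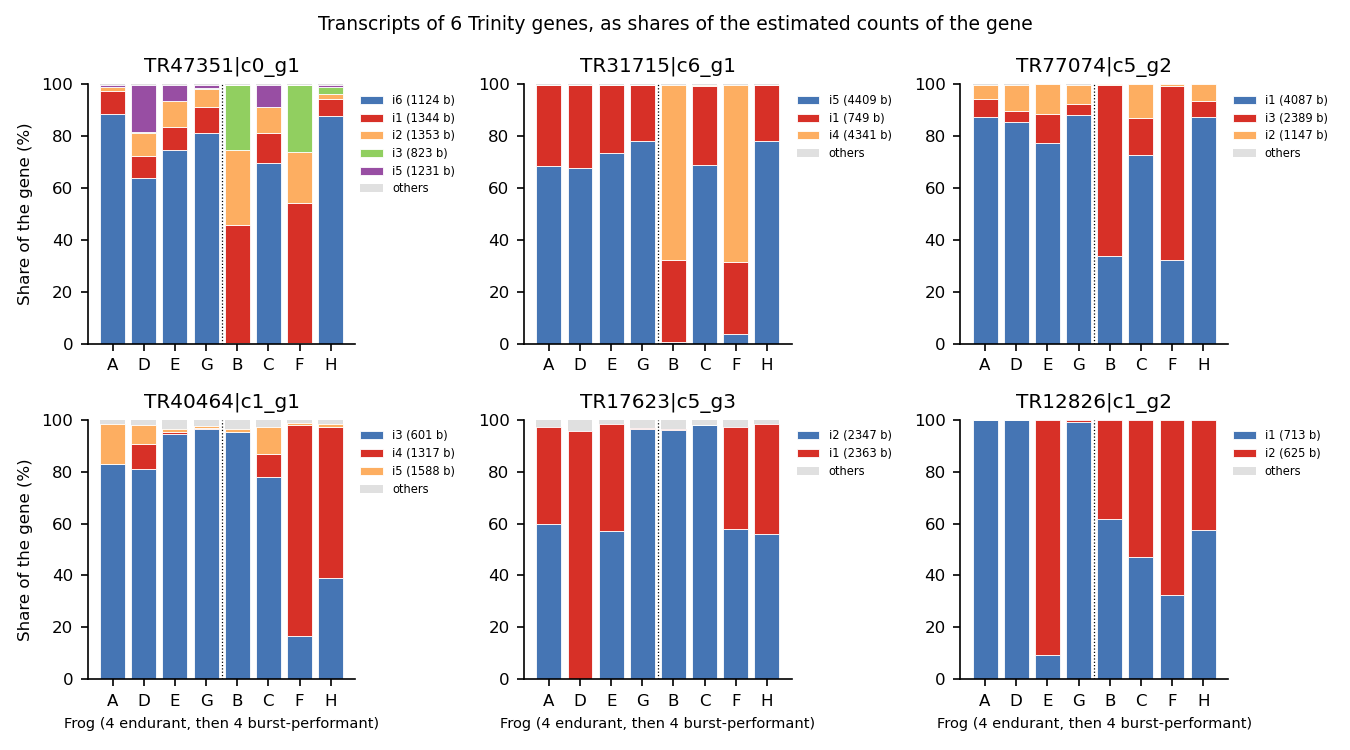
Shares (%) of the transcripts within 6 Trinity genes in the 4 endurant frogs (left of the dotted line) and 4 burst-performant frogs, with transcripts over 10% in any frog coloured and their length in bases (b) in the key. Frogs B and F differ from the other 6 in the 3 upper panels, where the leading transcript falls to between 0.0091% and 33.9%.

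Groups did not overlap in the share of the leading transcript in 3 of the 87 members, beside 2.91% of all genes tested. TR57630|c0_g1_i2 made up 60.6%, 67.5%, 51.5% and 51.1% in endurant and 85.8%, 90.9%, 69.9% and 78.4% in burst-performant individuals. TR18817|c4_g3_i1 made up 66.8% to 78.7% in the former and 80.7% to 85.6% in the latter. TR61392|c3_g2_i1 had the opposite direction, with 62.1% to 71.8% against 52.5% to 60.9%. For each of them the exact permutation test gave p = 0.0286 (n = 4 and 4, 2-sided), the smallest it allows. Any gene without overlap between the groups takes this value, so that the p restates how the 3 were picked and adds no evidence.

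The members were next related to 3 traits of the frogs, namely maximum velocity and acceleration of an escape burst and the time moved until exhaustion, by correlation of log2(CPM + 1) with the trait over the 8 frogs and exact permutation of all 40320 pairings. The distance covered until exhaustion separated the frogs into the same groups as their class and was not tested. After adjustment over all 35656 genes, 0 members were related to velocity, acceleration or time (background 0% for each). At an unadjusted p under 0.05 there were 6 members for velocity (background 3.55%), 3 for acceleration (3.63%) and 6 for time (5.98%). Groups of 4 frogs are too few for correlations within a group.

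The 3 members at an unadjusted permutation p under 0.05 for acceleration had a positive r, and none passed the adjustment. TR58824|c1_g2 had r = 0.88 (rho = 0.93, permutation p = 0.00141 and 0.00223, adjusted p = 1). TR40464|c1_g1 had r = 0.88 (rho = 0.86, permutation p = 0.00203 and 0.0107, adjusted p = 1). TR17476|c2_g1 had r = 0.87 (rho = 0.93, permutation p = 0.000694 and 0.00223). Without frogs A and C, the farthest from the median acceleration, r was 0.76, 0.70 and 0.80, with permutation p of 0.0944, 0.129 and 0.0625 over 6 frogs. These relations kept their sign and lost their side of the threshold without both frogs. Leaving out both frogs also narrows the range of the trait. With each frog left out in turn, r was at least 0.81 for TR58824|c1_g2 and 0.78 for TR40464|c1_g1. TR40464|c1_g1 had 1434, 996, 437 and 584 CPM in frogs A, D, E and G and 675, 2363, 1383 and 800 CPM in frogs B, C, F and H, with frog C highest and frog E lowest as in the other pair.

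For time to exhaustion TR57676|c2_g1 had r = 0.83 (rho = 0.76, permutation p = 0.0121 and 0.0368, adjusted p = 0.833) and TR31316|c6_g4 r = 0.82 (rho = 0.71, permutation p = 0.0126 and 0.0576, adjusted p = 0.833). Both were highest in frog E. Without frogs E and H, the farthest from the median time, r fell to 0.58 and 0.50, with permutation p of 0.232 and 0.314 over 6 frogs. Leaving out both ends of the trait also narrows its range. With each frog left out in turn, r was at least 0.65 for TR57676|c2_g1 and 0.62 for TR31316|c6_g4. TR57676|c2_g1 had 2401, 778, 4734 and 1148 CPM in the endurant and 1960, 433, 1035 and 619 CPM in the burst-performant individuals. The 6 members below the unadjusted threshold had a positive r. With TMM-scaled CPM 7 members were below it (beside 4.67% of all genes), 2 with a positive and 5 with a negative r. With time as a covariate in edgeR's quasi-likelihood test 11 members were below it (beside 1330 of 35656 genes), 2 with a positive and 9 with a negative slope. Over the whole set, however, r was positive in 40 of 95 members, beside 72.7% of all genes, and TMM-scaled CPM lowered this to 18 members beside 53.6%.

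For maximum velocity TR42081|c5_g2 had r = -0.76 (rho = -0.72, permutation p = 0.0392 and 0.0525, adjusted p = 0.99999) and TR31715|c6_g1 r = -0.74 (rho = -0.56, permutation p = 0.0482 and 0.155, adjusted p = 0.99999). Without frogs C and D r was -0.60 and -0.72, with permutation p of 0.212 and 0.135. In that reduced set of 6 frogs 0 members had an unadjusted p under 0.05 for velocity by the permutation test, beside 4.46% of all genes. With TMM-scaled CPM of all 8 frogs r was -0.80 (permutation p = 0.0176) for TR42081|c5_g2 and -0.64 (permutation p = 0.087) for TR31715|c6_g1. On that scale 4 members had an unadjusted p under 0.05, beside 4.86% of all genes, and 0 passed the adjustment. The largest r there was -0.88 for TR71424|c2_g5 (permutation p = 0.0058). TR31715|c6_g1 had 14759, 12901, 13272 and 15662 CPM in frogs A, D, E and G and 8375, 7925, 7844 and 16096 CPM in frogs B, C, F and H, where frog H lay above all others and frogs B, C and F below.

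In CPM, the members moved in small groups and not as a block. Over the 4465 pairs of members, Pearson's r of log2(CPM + 1) across the 8 frogs had a median of 0.03, with 30 pairs at 0.9 or more and 10 at -0.9 or less. Joining members by r of at least 0.9 gave 17 groups that held 44 members, while 51 members stood alone. Members were joined in chains, so that a group could hold pairs below 0.9, down to r = 0.73 in the group of 7 members. CPM values share a total, so that a median r near zero in CPM cannot show that a common movement is absent. With TMM-scaled CPM the median r rose to 0.31, the pairs at 0.9 or more to 76 and those at -0.9 or less fell to 1. On that scale 74.1% of the pairs had a positive r, beside 51.8% in CPM. The values of r are a description of these 8 frogs.

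**Figure D5:**
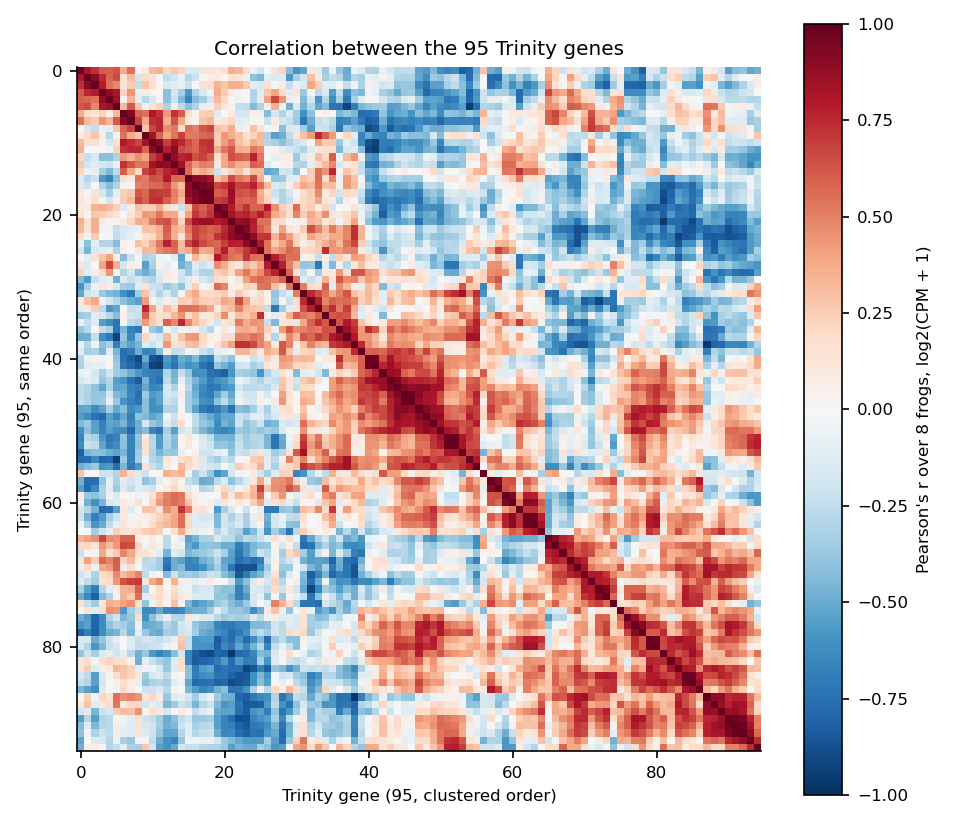
Pearson's r between the 95 Trinity genes over 8 frogs on log2(CPM + 1), in an order set by clustering (red positive, blue negative). Small red blocks lie along the diagonal, and the median over all 4465 pairs is 0.03.

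The largest group had 7 members, among them TR88932|c1_g4, TR5388|c0_g1, TR46642|c0_g1 and TR25376|c3_g1. Together they held 7.22%, 5.94%, 7.63% and 6.86% of the library in frogs A, D, E and G and 12.3%, 12.9%, 5.95% and 8.71% in frogs B, C, F and H. Frogs B and C stood far above the rest, and frog F, of the same class, lay beside the lowest frog. TR5388|c0_g1 had 24969, 32697, 16727 and 27397 CPM in frogs B, C, F and H and 21388, 13989, 20271 and 20349 CPM in frogs A, D, E and G.

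The 4 members without overlap between the groups formed 2 of the pairs at 0.9 or more. TR63587|c2_g2 and TR50279|c1_g1 had r = 0.98, and TR42081|c5_g2 and TR61392|c3_g2 had r = 0.92. The members of each pair are not counted as separate evidence on the groups. Both were picked for separating the groups in the same direction, which by itself raises r. These values therefore cannot show how far the members of a pair are independent. Another group joined TR31316|c6_g4 with TR43708|c2_g1 and TR71424|c2_g5.

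The highest correlation of all was that of TR58824|c1_g2 with TR17476|c2_g1 (r = 0.99, rho = 1), the genes with the widest spread. Their longest transcripts had 1992 and 1993 bases and each was assembled in 9 transcripts. Whether they are copies of similar sequence, between which read pairs could be split, was not tested because no sequence was used. Leaving out frogs C and E, which had the highest and lowest levels, left r at 0.995.

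Members of the same read cluster, which Trinity built from overlapping reads, were correlated in the 3 cases available. TR3354|c3_g3 and TR3354|c3_g1 had r = 0.98 (rho = 1), TR4808|c7_g2 and TR4808|c7_g3 r = 0.83 (rho = 0.69) and TR80004|c4_g2 and TR80004|c4_g1 r = 0.82 (rho = 0.90). Members with only the TR number in common ranged from r = 0.34 for TR88932|c1_g4 and TR88932|c2_g2 to 0.94 for TR70900|c7_g1 and TR70900|c8_g1. Sharing of read pairs between genes of a cluster cannot be told apart from a shared level.

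The lowest correlation was that of TR73665|c7_g4 with TR39238|c6_g2 (r = -0.96, rho = -0.81). In frog C TR73665|c7_g4 was lowest with 519 CPM against 922 to 1478 CPM elsewhere, and TR39238|c6_g2 highest with 1608 CPM against 916 to 1074 CPM. Without frog C r was -0.82, without frogs C and D it was -0.64, and with TMM-scaled CPM it was -0.55.

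Against the most abundant member, TR80004|c4_g2, 7 of the other 94 members had an unadjusted permutation p under 0.05, beside 3.07% of 35655 genes, and 0 passed the adjustment over all genes by that test. The most similar were TR92455|c9_g1 (r = 0.89), TR80004|c4_g1 (r = 0.82) and TR88615|c5_g1 (r = 0.79), over 8 frogs. The least similar were TR70981|c4_g4 (r = -0.80), TR88932|c1_g4 (r = -0.78) and TR31702|c0_g1 (r = -0.77). Without frogs B and H, where TR80004|c4_g2 was lowest and highest, r was 0.86 for TR92455|c9_g1 and -0.84 for TR70981|c4_g4, but 0.32 for TR88615|c5_g1 and -0.50 for TR31702|c0_g1.

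Principal components of the members on log2(CPM + 1) did not fully divide the frogs by class. The first component held 30.8% of the variance and placed frog C at 5.82, frog B at 3.74 and frog A at 1.79. Frogs F, H and D followed at -0.28, -1.26 and -2.20, with frogs E and G at the other end at -4.05 and -3.55. The endurant frogs D, E and G thus lay below every burst-performant frog, and frog A alone lay among the burst-performant frogs. The largest loadings of the first component were those of TR17476|c2_g1 (0.512) and TR58824|c1_g2 (0.497), ahead of 0.298 for TR25376|c3_g1. Members were not scaled to equal variance, and TR17476|c2_g1 and TR58824|c1_g2 had the same order of frogs. The places of the frogs on this component therefore follow these 2 genes in large part and do not describe the members evenly. The second component, with 23.9%, set frog G at -5.82 apart from frog E at 3.38. Its largest loading, 0.665, was that of TR34010|c1_g2, the short gene with a very low estimate in frog G. The part that fragment length plays in that estimate was not tested.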

How the data were processed

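Knee extensor RNA of 8 frogs was analysed, with groups taken from the class given for each frog. The authors trimmed read pairs with Trimmomatic, assembled them de novo with Trinity and quantified transcripts with Kallisto, in versions not given in the sources used here. Estimated counts, as deposited, are read pairs per transcript before any correction for length or depth. The deposited TPM values are corrected for effective length and sum to 1000000 per frog. The deposited tables also give lengths and effective lengths in bases, used only as such.

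The members and lists were chosen with earlier results of these data known. Estimated counts were summed per Trinity gene, rounded, and tested with edgeR 4.0.16 (R 4.3.3, TMM, glmQLFit and glmQLFTest, SE as the absolute log2 fold change over the root of F) on genes with more than 1 CPM in at least 2 frogs, endurant against burst-performant, with Benjamini-Hochberg adjustment at 0.05. DESeq2 1.42.0, the exact test of edgeR, limma 3.58.1 on log2(TPM + 1), other scalings and filters, and each frog left out were alternatives. Correlations used exact permutations (Python 3.11.15, numpy 2.4.6, scipy 1.17.1) on log2(CPM + 1), a pseudocount of 1. Trait values came from the article. The quasi-likelihood and exact tests of edgeR, DESeq2 and the permutation test of correlations were checked on simulated data. The limma fit, the permutation test of groups and Dixon's limit were not. Simulated group differences were larger than the fold changes printed here. Total estimated counts ran from 4449192 to 17359253 per frog, the highest giving the least counting error. The only member with a symbol was joined through its fold change and adjusted p in the exact test.

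Named were the 6 members of highest mean, the 4 highest and 4 lowest CV, the 3 largest fold changes and 2 lowest p in each direction, the 2 largest r per trait, the 3 most and least correlated with the most abundant member, the extreme pairs, the 5 genes on each side of the threshold, members with a symbol, and the 4 largest group differences in leading-transcript share. Other members were named after their values were seen.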

Additional observations from a re-analysis of the deposited data

Results flagged for a closer look

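Within each group of 4 frogs, the highest or lowest frog was compared with the nearest of the others for the level of each member, the summed share and 4 leading-transcript shares. In 17 of 200 such comparisons (8.50%) the gap passed Dixon's 95% limit for 4 samples. Frog A was the frog apart in 7 of these 17. Chance gives about 1 in 20 (5%) where the comparisons are independent and the values normally distributed. The comparisons were not independent, because members are shares of the same libraries and some are closely correlated. Levels were also used without logarithms. The 8.50% is therefore a description and does not show an excess over chance.

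Among endurant individuals frog A was high for TR58824|c1_g2 (1898 CPM against 157 to 294 CPM), TR17476|c2_g1 (1764 CPM against 95.2 to 201 CPM), TR25376|c3_g1 (5537 CPM against 2670 to 2703 CPM), TR18817|c4_g3 (2932 CPM against 482 to 792 CPM), TR46482|c0_g1 (9686 CPM against 4972 to 5347 CPM) and TR47299|c6_g1 (1517 CPM against 1099 to 1151 CPM). It was low for TR68312|c2_g1, with 1362 CPM against 3217 to 3473 CPM. Frog D was low for TR5388|c0_g1 (13989 CPM against 20271 to 21388 CPM) and TR63587|c2_g2 (10163 CPM against 11842 to 12104 CPM) and high for TR13312|c3_g2 (2212 CPM against 1513 to 1584 CPM). Frog E was low for TR63575|c3_g1 (6561 CPM against 13862 to 14711 CPM) and high for TR47351|c0_g1 (16709 CPM against 8610 to 9553 CPM).

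Among burst-performant individuals frog C was high for TR10785|c4_g1 (14835 CPM against 10325 to 11019 CPM) and TR39238|c6_g2 (1608 CPM against 916 to 1024 CPM), and frog H for TR31715|c6_g1 (16096 CPM against 7844 to 8375 CPM) and TR21739|c0_g1 (2837 CPM against 1085 to 1252 CPM). Frog B was high for TR70900|c7_g1, with 12559 CPM against 3902 to 5303 CPM.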

How the results depend on the processing

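The count of members called between the groups was 0 under 15 of 16 alternatives, each frog left out and frogs C and D left out included, and 5 without a filter on low genes. For transcripts of members it was 0 under 10 of 12 alternatives, 1 with the exact test of edgeR and 5 with DESeq2. The counts of members related to each trait were 0 under all 12 alternatives. All 8 members named for their fold change or p between the groups kept the sign of the change under 16 alternatives each. They were picked for these values in the same frogs, which the alternatives reuse, so that a kept sign was likely beforehand. Sizes shrank, to -0.47 for TR17476|c2_g1 without frogs C and D and to 0.35 for TR57676|c2_g1 without frog E. Members at an unadjusted p under 0.05 numbered 1 without frog E, beside 1744 of all 34423 genes, and 18 without frog F, beside 1387 of 33659. The mean summed share was 43.84% in TPM, 48.8% when the 5 most abundant Trinity genes were taken out of the library, and 53.2% without frogs C and D. The median CV was 38.6% with TMM-scaled CPM and 27.8% to 31.6% with each frog left out. Pairs at r of 0.9 or more numbered 30, and 76 with TMM-scaled CPM, 50 without frogs C and D and 37 to 47 with each frog left out. Members without overlap in the leading-transcript share numbered 3 to 7 with each frog left out, 7 without frog B and 5 without frog E, and fewer frogs overlap less often by construction. The cause of the other changes was not tested. With 4 frogs per group and 1 library per frog, differences within the spread were not detectable, and depth limits the members less than other genes, since the lowest estimated count of any member in any frog was 118. No paired analysis was possible because no letter of a frog recurs and no frog belongs to both groups.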
